A study of Mus musculus with 21 samples.

Results

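The insertion of 3 CTCF-binding elements downstream of Cγ2a was examined in CH12F3 cells that lack Iα, by setting 3 libraries with the insertion (genotype Ialpha-delta-i3CBEc, written Iadel-i3CBEc here) against 6 libraries without it (genotype I-alpha-delta, written Iadel). These 9 libraries, chosen by genotype label alone, are part of a series of 21. CH12F3 cells are B cells of a mouse lymphoma that can be induced to switch, mainly from IgM to IgA. Every library came from genomic DNA of cells given anti-CD40, IL4 and TGF-β, and the stimulation lasted 72 h. In both groups the allele that makes no heavy chain has lost its Sμ-to-Sα segment, a deletion carried by the line from which all mutants were derived. Both groups have also lost Iα, the promoter and first exon from which the Sα switch region is transcribed. The 3 elements are the only labelled difference. The labels give neither the number of clones nor whether libraries are separate cultures, so p-values measure the spread between libraries, which may be technical.

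Class switching joins a break in Sμ to a break in a downstream switch region, where the enzyme AID deaminates transcribed DNA rich in AGCT. The region between the breaks is lost from the chromosome when the join is deletional, and is turned round when it is inverted. CTCF bound to a CTCF-binding element (CBE) is known to halt cohesin, the ring complex that extrudes chromatin loops, and the title of the series places loop extrusion at the centre of its question. The assay, CSR-HTGTS-seq, reads from a fixed primer at the 5′ side of Sμ, through the bait, into the DNA joined to it, the prey. A junction here is 1 such read. The bait is the sequence from the primer to the break, and its break end varies between junctions.

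The Iadel-i3CBEc libraries held 2129, 1576 and 1447 junctions, 5152 in all, and the Iadel libraries held 1315 to 3513, 14644 in all. By their read names, Iadel libraries 4 to 6 were sequenced in the same run as the 3 Iadel-i3CBEc libraries, and Iadel libraries 1 to 3 in another. Iadel libraries differed by run: junctions outside the heavy-chain window made up 78.4% to 79.9% in libraries 1 to 3 and 54.3% to 56.4% in libraries 4 to 6. Values against libraries 4 to 6 alone are therefore given beside the main ones.

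Libraries of a group also shared joins, meaning the same prey base, strand and bait end. Pairs of Iadel-i3CBEc libraries shared 15 to 18 acceptor joins, of 217 to 322 per library. Pairs within Iadel libraries 1 to 3 shared 3 to 12, pairs within 4 to 6 shared 4 to 10, and pairs of an Iadel-i3CBEc with an Iadel library shared 0 or 1. The 2 groups used different acceptors, as given below, which limits the acceptor joins that they can share. For junctions outside the heavy-chain window, Iadel-i3CBEc pairs shared 3 each. Pairs within Iadel libraries 1 to 3 shared 2 or 3 of these, and pairs within 4 to 6 shared 2 to 4. Pairs across the 2 Iadel runs shared 0 to 4, and pairs of an Iadel-i3CBEc with an Iadel library 0 to 3. A join at chromosome 12 position 114519109 was read in all 3 Iadel-i3CBEc libraries from the same bait end. Its 3 reads carried the same difference from mm9 at position 114519081, which was present in 0 of the 15 other reads over that base. The source of shared joins was not tested.

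Positions are those of the mm9 build on chromosome 12, where the heavy-chain genes run from the bait at the high-number end towards α at the low-number end. For prey on the α side of the bait, the strand given as minus is the deletional orientation. For other prey, minus names the strand only. The longest bait alignment is shown first, because every junction starts from it, with each AGCT in capitals here and below. It covers chr12:114664780-114664909, minus strand.

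bait: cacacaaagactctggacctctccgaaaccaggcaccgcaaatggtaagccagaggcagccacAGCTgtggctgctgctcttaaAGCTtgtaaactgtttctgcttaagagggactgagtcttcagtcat

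The prey sequences below start at the junction, run 5′ to 3′ as read, and stand for the most used position of each region, with 1 more in the stretch for the join read in all 3 libraries. The first 3 lie in the 12-kb stretch between the Sγ2a and Sε blocks, at chr12:114521688-114521747 and chr12:114519050-114519109 in Iadel-i3CBEc and at chr12:114521526-114521585 in Iadel, all on the minus strand.

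stretch, Iadel-i3CBEc: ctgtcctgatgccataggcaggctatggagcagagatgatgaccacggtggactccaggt

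stretch, Iadel-i3CBEc, join of all 3 libraries: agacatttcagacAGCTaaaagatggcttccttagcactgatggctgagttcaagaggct

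stretch, Iadel: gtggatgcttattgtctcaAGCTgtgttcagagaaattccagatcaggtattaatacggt

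The next come from switch regions, for comparison of their motif content. They lie at chr12:114513920-114513979 (ε), chr12:114602429-114602488 (γ3), chr12:114550721-114550780 (γ2b) and chr12:114529958-114530007 (γ2a), minus strand.

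ε, Iadel-i3CBEc: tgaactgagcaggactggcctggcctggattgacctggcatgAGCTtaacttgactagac

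γ3, Iadel: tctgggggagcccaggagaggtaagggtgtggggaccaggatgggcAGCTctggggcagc

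γ2b, Iadel: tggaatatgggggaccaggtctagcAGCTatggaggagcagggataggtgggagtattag

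γ2a, Iadel: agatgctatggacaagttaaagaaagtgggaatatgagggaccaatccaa

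With the insertion, the acceptor end of the joins moved from γ3 and γ2b to the stretch that holds the inserted elements and to ε just beyond it. The stretch and ε together took 732 of 776 acceptor junctions in Iadel-i3CBEc (94.3%) and 22 of 1466 in Iadel (1.50%). γ3 and γ2b together took 0 of 776 in Iadel-i3CBEc and 1254 of 1466 in Iadel (85.5%). Acceptor junctions are all those from γ3 through α, the stretch included. By the exact permutation test over libraries (two-sided, 84 splits, smallest p 0.0119, adjusted by Benjamini-Hochberg over 10 regions), 6 of 10 regions differed, which is 60% of those tested, and in 8 of 10 the 2 groups did not overlap. Leaving out any 1 Iadel-i3CBEc library raised the smallest p to 0.0357, and no region then passed the adjustment. Without Iadel library 2 the stretch, ε, γ3, γ2b and the region downstream of α each had an adjusted p of 0.0595, and without Iadel library 3 γ3 had 0.0510 (exact permutation test).

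**Figure D1:**
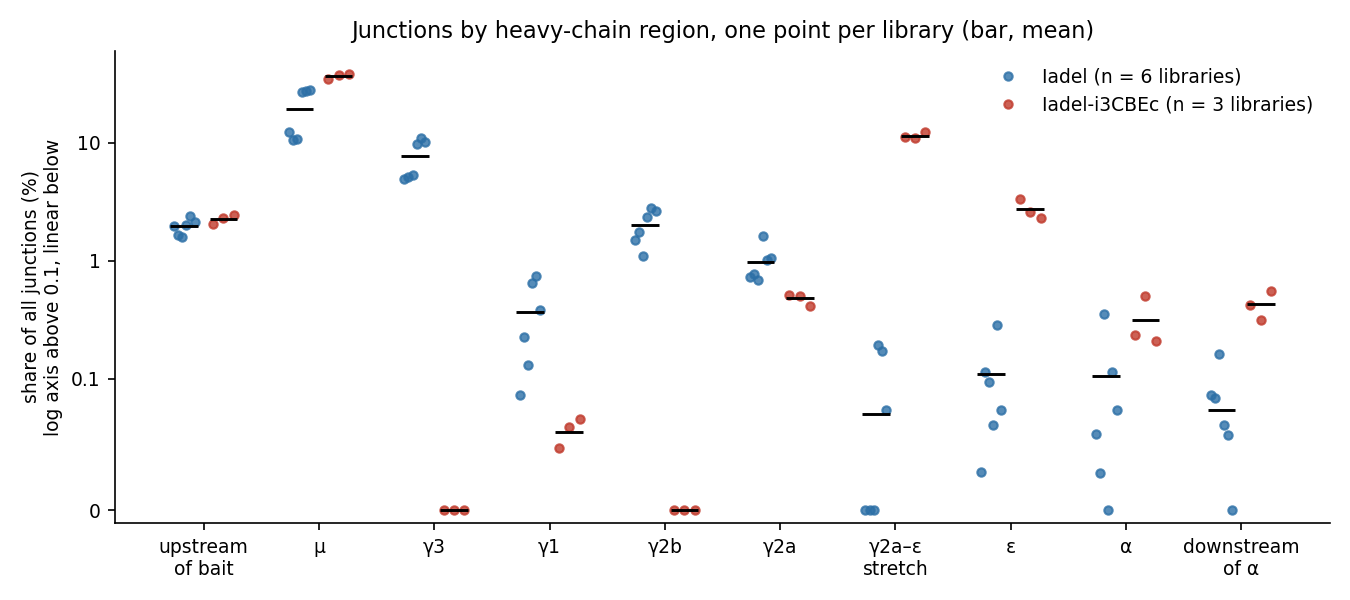
Share of all junctions (%) in each heavy-chain region, ordered from the bait towards and past α, with 1 point per library and a bar at the group mean, on an axis that is logarithmic above 0.1% and linear below. The 3 Iadel-i3CBEc libraries lie at 0 in γ3 and γ2b and between 10.9% and 12.2% in the stretch, where the Iadel libraries lie between 0% and 0.195%.

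The stretch spans 114516000 to 114527999 and, by gene order, is where Cγ2a, the constant gene behind Sγ2a, would lie. It took 11.2%, 10.9% and 12.2% of all junctions in the Iadel-i3CBEc libraries, from 238, 172 and 177 junctions. In Iadel it took 0% in libraries 1 to 3, and the lowest, median and highest of all 6 were 0%, 0.0380% and 0.195%. The groups stood far apart, at 11.4% ± 0.697 (SD, n = 3) against 0.0736% ± 0.0898 (SD, n = 6), a ratio of 156 (adjusted p = 0.0238, exact permutation test). Against Iadel libraries 4 to 6 alone the difference was 11.3 percentage points and the ratio 77.8 (exact permutation p = 0.1, the smallest that 3 against 3 allows). Without joins found in more than 1 library of a group, the difference was 10.5 points.

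ε, which follows the stretch and holds the Sε block used for IgE, spans 114508500 to 114515999. Its shares were 3.33%, 2.60% and 2.28% in the Iadel-i3CBEc libraries. In Iadel they ran from 0.0291% through a median of 0.0867% to 0.284%. Every insertion library was above every Iadel library, with means of 2.74% ± 0.540 (SD, n = 3) and 0.111% ± 0.0897 (SD, n = 6), a ratio of 24.7 (adjusted p = 0.0238, exact permutation test). Against libraries 4 to 6 alone the ratio was 19.3. Most ε junctions of Iadel-i3CBEc, 137 of 145, lay inside the Sε block.

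Per kilobase, the 12-kb stretch of Iadel-i3CBEc had 95.3 ± 5.81 junctions per 10000 per kb and the 3-kb Sε block 86.5 ± 15.2 (SD, n = 3 libraries each). Use within the stretch was uneven: the bins at 114519000, 114520000 and 114521000 had 204.5 ± 44.6, 264.0 ± 32.5 and 369.0 ± 37.2 per 10000 (SD, n = 3), each above the Sε mean. In Iadel the same measure was 0.613 ± 0.749 in the stretch and 3.52 ± 3.05 in Sε (SD, n = 6 libraries). The 5-kb Sγ3 block, the most used acceptor of Iadel, had 152.0 ± 55.9 there.

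γ3, whose Sγ3 block lies nearest the bait, was not detected as an acceptor after the insertion. All 3 Iadel-i3CBEc libraries held 0 γ3 junctions among 5152 in all, which allows a share of up to 0.0582%. The Iadel libraries ran from 4.89% through a median of 7.50% to 11.0%, from 987 junctions. The mean of 7.67% ± 2.83 (SD, n = 6) was at least 132-fold higher than the limit in Iadel-i3CBEc (adjusted p = 0.0238, exact permutation test). The γ3 share of Iadel was itself lower in libraries 1 to 3, at 5.12% ± 0.215 (SD, n = 3), than in libraries 4 to 6, at 10.2% ± 0.663 (SD, n = 3).

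γ2b was likewise at 0 in all 3 Iadel-i3CBEc libraries. In Iadel it ran from 1.10% through 2.05% to 2.78%, from 267 junctions, all within the Sγ2b block. The mean of 2.02% ± 0.677 (SD, n = 6) was at least 34.7-fold above the limit that 0 of 5152 allows (adjusted p = 0.0238, exact permutation test). Iadel libraries 4 to 6 had 2.59% ± 0.230 (SD, n = 3). γ1 gave 1 junction in each Iadel-i3CBEc library. Its share there was 0.0598% ± 0.0115 (SD, n = 3), against 0.369% ± 0.273 (SD, n = 6) in Iadel, and the difference did not pass (adjusted p = 0.106, exact permutation test). Iadel libraries 4 to 6 had 0.590% ± 0.187 (SD, n = 3), and the ratio moved from 0.162 to 0.102.

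γ2a, on the bait side of the insertion, lay between these cases. Its share was 0.517%, 0.508% and 0.415% in Iadel-i3CBEc, and 0.681% to 1.62% with a median of 0.896% in Iadel. The groups did not overlap, at means of 0.480% ± 0.0565 (SD, n = 3) and 0.982% ± 0.353 (SD, n = 6), but the adjusted p was 0.0510 (exact permutation test). Iadel libraries 4 to 6 had 1.24% ± 0.336 (SD, n = 3). The positions differed in kind. Of 25 γ2a junctions in Iadel-i3CBEc, 22 lay in the kilobase from 114528000, which borders the stretch, and 0 in the 3 kb from 114531000, where 83 of 130 lay in Iadel.

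In 1-kb bins across the window, limma on log2(junctions per 10000 + 1) called 31 of 60 tested bins, or 51.7% (adjusted p below 0.05, Benjamini-Hochberg). Of these, 15 were higher (25% of those tested) and 16 lower (26.7%) in Iadel-i3CBEc. Every bin of the stretch (9) and of ε (3) rose, and all 5 of γ3, 5 of 6 of γ2b and 2 of 3 of γ1 were lower. γ2a had 1 bin higher and 4 lower of 6. The median log2 difference was 6.10 over the stretch, -6.94 over γ3 and 0 over all 60 bins. The minimum of 10 junctions counts all libraries of the series. Some of the 60 bins, in α and downstream of it, therefore held 0 junctions in both groups. Their difference was fixed at 0, and the shares and the median over 60 include them. Of the 31, 22 passed the minimum of 10 junctions only through the group where they were high, so that these counts describe the bins and give no further support. A log2 difference against a group at 0 depends on the added 1.

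**Figure D2:**
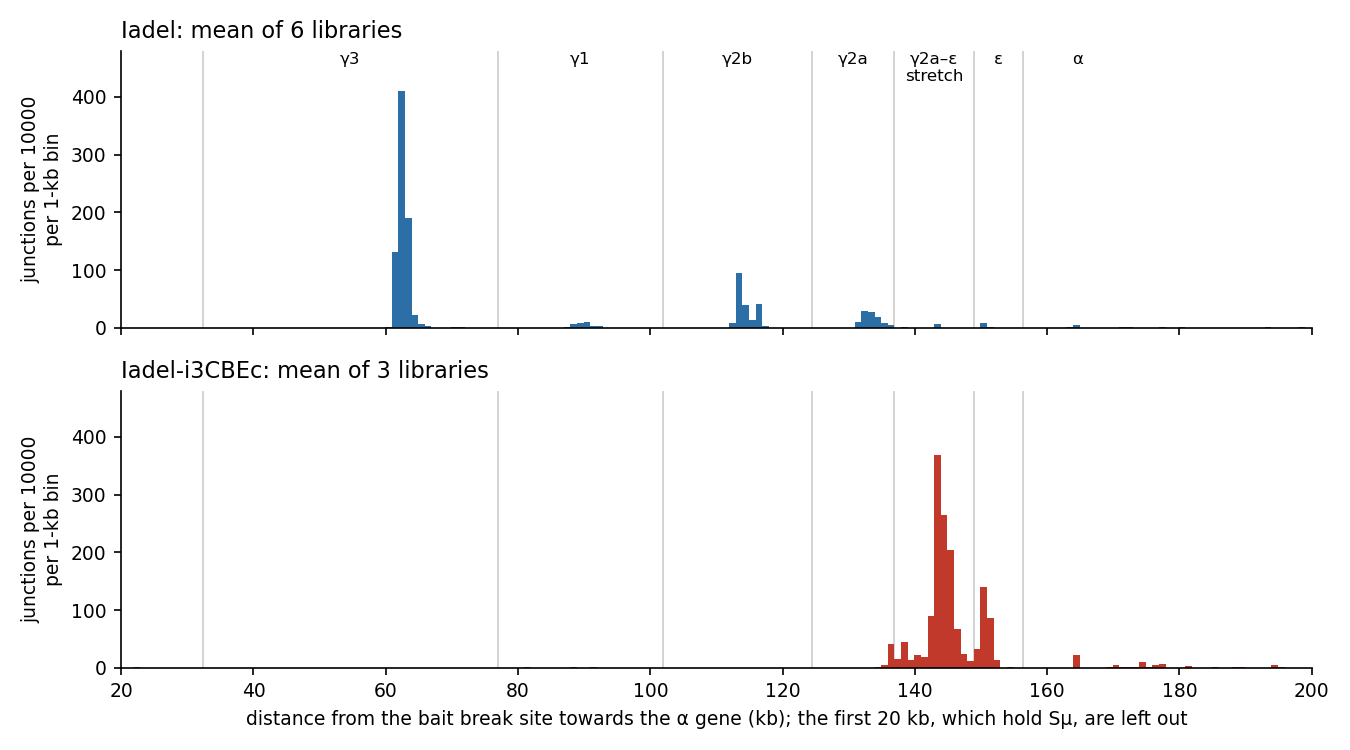
Mean junctions per 10000 in each 1-kb bin for Iadel (upper, 6 libraries) and Iadel-i3CBEc (lower, 3 libraries), with grey lines at the region borders. Distance (kb) runs towards α from the primer side of the bait, at 114664909, which the axis calls the break site. The 20 kb nearest the bait, which hold the higher Sμ bins, are left out. Of the bins shown, the highest is in γ3 in Iadel, at 409.6, and in the stretch in Iadel-i3CBEc, at 369.0.

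The bins with the largest called differences in each region are given as a description. The bin at 114520000, in the stretch, held 138 junctions in Iadel-i3CBEc (264.0 ± 32.5 per 10000, SD, n = 3) and 0 in Iadel, a log2 difference of 8.04 ± 0.643 (SE; limma adjusted p = 2.35e-09). The bin at 114519000 held 103 against 0. In ε, the bin at 114513000 held 46 junctions in Iadel-i3CBEc (86.9 ± 21.8 per 10000, SD, n = 3) and 3 in Iadel, a log2 difference of 5.51 ± 0.604 (SE; limma adjusted p = 7.46e-08), and the bin at 114515000 held 18 against 1. On the losing side, the γ3 bin at 114602000 held 0 junctions in Iadel-i3CBEc and 518 in Iadel (409.6 ± 169.9 per 10000, SD, n = 6), a log2 difference of -8.57 ± 0.845 (SE; limma adjusted p = 2.48e-08). The γ3 bin at 114601000 held 0 against 248. The γ2b bins at 114551000 and 114550000 held 0 against 121 and 0 against 54, and the γ2a bins at 114532000 and 114531000 each held 0 against 36. The γ1 bins at 114574000 and 114575000 held 0 against 13 and 0 against 11, and the call of the former was lost in 7 of the 9 fits that left out 1 library (limma adjusted p up to 0.0668).

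Within the stretch, junctions piled up towards α from the insertion. The inserted elements lie at an unknown point between 114521585 and 114526803, as placed from a shift of 99 bases between the coordinates of the groups. Of 587 Iadel-i3CBEc junctions, 383 (65.2%) lay on the α side of this interval, 186 (31.7%) within it and 18 (3.07%) on its μ side. These parts differ in length: the α side starts at 114516000, while the μ side is cut off at 114527999. The next kilobase towards μ, counted as γ2a, held 22 more. The central 50% of junctions (the interquartile range) spanned 114519888 to 114521752, or 1864 bases, and the medians of the 3 libraries were 114520990, 114520966 and 114521090, within 124 bases of each other. The 500 bases from 114521500 held the most, 122 junctions (20.8%), and the next 500 bases towards μ held 15. From there towards α the bins held 70, 84, 54, 43, 60 and 27 junctions before dropping to 8. Positions within the interval may be off by up to 99 bases.

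**Figure D3:**
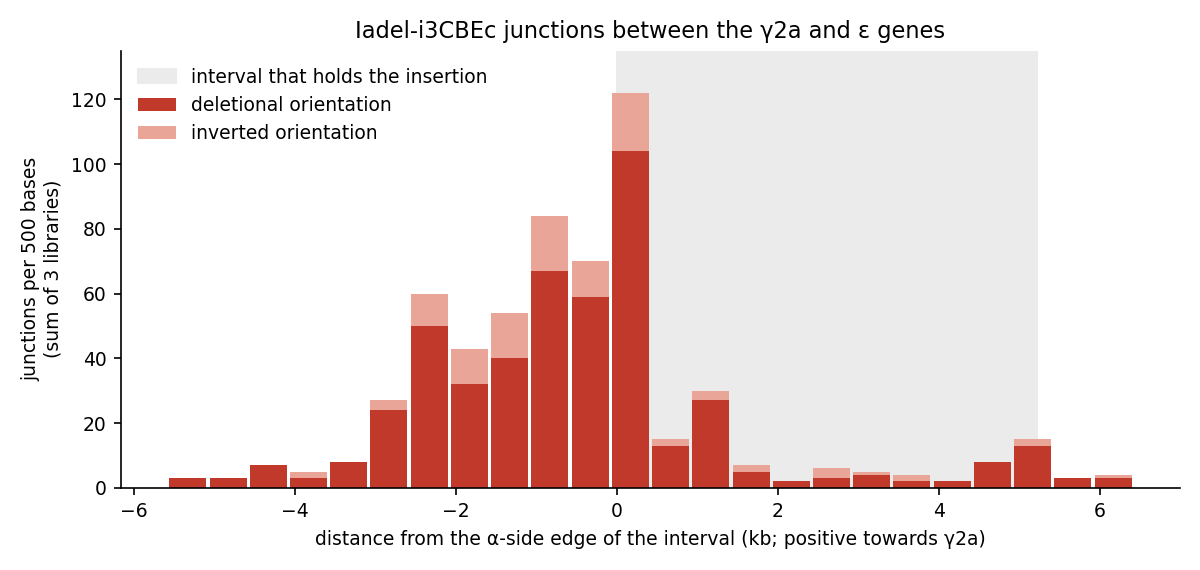
Junctions of the 3 Iadel-i3CBEc libraries summed in 500-base bins across the stretch, by distance from the α-side edge of the interval that holds the insertion (kb, positive towards γ2a), split into deletional (dark) and inverted (light) orientation. The highest bin, 122 junctions, spans the edge, and most others lie within 3 kb of it on the α side.

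Single positions in the stretch were rarely reused. The 587 junctions fell on 501 positions, 429 of them used by 1 junction, and the most used position, 114521747, had 4, from 4 bait ends in 2 libraries. The next most used, at 3 each, included 114517207, from 1 library, and 114519109, from 3. In ε, the most used positions, 114513979 and 114515041, had 3 each, and 114512265 had 2. γ3 of Iadel had up to 7 at 1 position, 114602488, in all 6 libraries, and 6 each at 114601581 and 114602151. γ2b of Iadel had 3 each at 114550780, 114551049 and 114551481, and γ2a of Iadel at most 2, at 114530007, 114530576 and 114531198.

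The few stretch junctions of Iadel were of another kind. There were 7, all in libraries 4 to 6, and 6 of them were at 1 position, 114521585, of which 4 had the same bait end. Iadel-i3CBEc had 0 junctions at that position.

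Beyond ε, the share of α did not pass the test. Iα drives transcription of Sα, the main acceptor of switching in CH12F3 cells, and both groups lack it. The α share was 0.235%, 0.508% and 0.207% in Iadel-i3CBEc and 0% to 0.357% with a median of 0.0671% in Iadel. The groups overlapped, at 0.317% ± 0.166 (SD, n = 3) and 0.106% ± 0.129 (SD, n = 6), and the difference did not pass (adjusted p = 0.0893, exact permutation test). Without Iadel library 3, which held 11 of the 17 α junctions of Iadel, it passed (adjusted p = 0.0357, exact permutation test) and the ratio went from 3.00 to 5.73. Against Iadel libraries 4 to 6 alone the ratio was 5.01. With prey alignments of at least 50 bases the α share differed by -0.00877 points, a ratio of 0.897 (adjusted p = 0.976, exact permutation test). Of the 16 α junctions in Iadel-i3CBEc, 10 were at 114500947 or the base before it, with prey alignments of 26 or 27 bases and 1 to 19 inserted bases. Iadel had 3 of 17 there. The sequence, at chr12:114500921-114500947 on the minus strand, is shown because it carries that peak.

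α, Iadel-i3CBEc: ctgAGCTgAGCTgggatgAGCTgAGCT

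The 1-kb bin at 114500000 that holds it was the only α bin called of 10, with 11 junctions in Iadel-i3CBEc and 9 in Iadel (log2 difference 2.02 ± 0.570, SE; limma adjusted p = 0.00453). With prey alignments of at least 50 bases the sign of that difference turned, to -1.45. Only 3 α junctions of Iadel-i3CBEc and 12 of Iadel met that length. Of the other α bins, those at 114496000, 114497000, 114498000 and 114503000 held 0 junctions in both groups and could not be called.

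Downstream of α, in the part of the window that runs on towards the 3′ end of the locus, junctions were few but higher with the insertion. The shares were 0.423%, 0.317% and 0.553% in Iadel-i3CBEc, from 22 junctions, and 0% to 0.162% with a median of 0.0752% in Iadel, from 13. Groups did not overlap, at 0.431% ± 0.118 (SD, n = 3) and 0.0761% ± 0.0527 (SD, n = 6), a ratio of 5.66 (adjusted p = 0.0238, exact permutation test). Against Iadel libraries 4 to 6 alone the ratio was 10.6. Of the 22, 12 lay within 5 kb of the α region and 7 were inverted. 0 of 10 bins downstream of α were called by limma, and 0 had an unadjusted p below 0.05. The bins could not test this difference. Those at 114487000 and 114466000 held 3 against 2 and 0 against 1 junctions. The rest held 0 in both groups and passed the minimum through other genotypes.

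The total joined to acceptors did not pass the test over all 9 libraries. It was 15.3%, 14.6% and 15.2% of all junctions in Iadel-i3CBEc and 7.28% to 16.1% in Iadel, with means of 15.0% ± 0.387 (SD, n = 3) and 11.3% ± 4.06 (SD, n = 6; p = 0.238, exact permutation test). Iadel libraries 4 to 6, of the shared run, had 15.0% ± 0.937 (SD, n = 3). Libraries 1 to 3 had 7.67% ± 0.388 (SD, n = 3). Without Iadel library 5 the difference over the remaining libraries was 4.65 points and passed (unadjusted p = 0.0357, exact permutation test). All these are shares of all junctions, of which the part outside the window was lower in Iadel-i3CBEc. The acceptor total was not computed as a share of the window alone. In pooled counts, with no test, Iadel-i3CBEc had 776 acceptor beside 1874 μ junctions, and Iadel 1466 beside 2375.

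Joins within μ, short-range joins in and near the Sμ donor, took a higher share of all junctions with the insertion. That share also moves with the part outside the window, which was lower in Iadel-i3CBEc (mean 45.7% against 67.4%). Joins within μ made up 34.8%, 37.1% and 38.0% in Iadel-i3CBEc. The lowest, median and highest in Iadel were 10.5%, 19.6% and 27.7%. The groups did not overlap, with means of 36.6% ± 1.67 (SD, n = 3) and 19.2% ± 8.86 (SD, n = 6), a ratio of 1.91 (adjusted p = 0.0397, exact permutation test). Iadel libraries 4 to 6 had 27.3% ± 0.370 (SD, n = 3), so that the difference within the shared run was 9.34 points in place of 17.4. The call was lost whichever of the 9 libraries was left out (adjusted p 0.0510 to 0.119, exact permutation test). The median distance of μ junctions from the primer side of the bait, at 114664909, was 1494 to 1505 bases in Iadel-i3CBEc and 1466 to 1542 in Iadel. The only μ bin called of 5, at 114663000 in Sμ, held 1034 junctions in Iadel-i3CBEc (2015 ± 77.1 per 10000, SD, n = 3) and 1134 in Iadel (892.7 ± 349.1, SD, n = 6), a log2 difference of 1.27 ± 0.348 (SE; limma adjusted p = 0.00357).

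Junctions outside the window were lower. They made up 45.7% ± 1.81 (SD, n = 3) in Iadel-i3CBEc and 67.4% ± 13.1 (SD, n = 6) in Iadel (p = 0.0238, exact permutation test, not adjusted for the 2 totals tested). Iadel libraries 4 to 6 had 55.5% ± 1.07 (SD, n = 3), a difference of -9.84 points within the shared run. The call was lost without any 1 of the 3 Iadel-i3CBEc libraries or of Iadel libraries 1 to 3 (unadjusted p up to 0.143, exact permutation test). Those to other chromosomes made up 42.0% ± 2.32 (SD, n = 3) and 63.8% ± 12.5 (SD, n = 6) of all junctions and did not pass (adjusted p = 0.0714, exact permutation test over 3 measures). Junctions elsewhere on chromosome 12 made up 3.67% ± 1.21 (SD, n = 3) and 3.65% ± 0.602 (SD, n = 6) of all junctions (p = 1, exact permutation test). The region upstream of the bait took 2.26% ± 0.178 (SD, n = 3) and 1.95% ± 0.299 (SD, n = 6), a difference that did not pass (adjusted p = 0.155, exact permutation test). Without joins found in more than 1 library of a group it was 0.73 points and passed (adjusted p = 0.0238), and as a share of the window alone it passed in the other direction, at -2.48 points (adjusted p = 0.0446, exact permutation test).

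Orientation also differed. Acceptor junctions were deletional in 82.8%, 78.3% and 87.7% of cases in the Iadel-i3CBEc libraries, and in 93.2% to 97.2% with a median of 95.7% in Iadel. None of the 3 reached the Iadel range, at 82.9% ± 4.73 (SD, n = 3) and 95.3% ± 1.55 (SD, n = 6; adjusted p = 0.0238, exact permutation test over 4 classes). Acceptors as 1 class were added after the values had been seen. Against libraries 4 to 6 alone the difference was -13.5 points. Leaving out any 1 Iadel-i3CBEc library ended this call and the one upstream of the bait (adjusted p = 0.0714 each, exact permutation test). Since the acceptors used differ almost completely, the class compares different regions in the 2 groups.

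Within Iadel-i3CBEc the orientation of the stretch and of ε can be given apart. The stretch was 82.4%, 77.3% and 88.1% deletional by library and ε 81.7%, 80.5% and 84.8%. In pooled counts 102 of 587 stretch and 26 of 145 ε junctions were inverted. On the α side of the insertion interval 312 of 383 stretch junctions were deletional (81.5%), and within it 157 of 186 (84.4%). In Iadel 54 of 987 γ3 junctions, 8 of 267 γ2b junctions and 0 of 15 ε junctions were inverted. The last count allows a deletional share from 79.6% (95% Wilson interval), which includes the value in Iadel-i3CBEc.

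**Figure D4:**
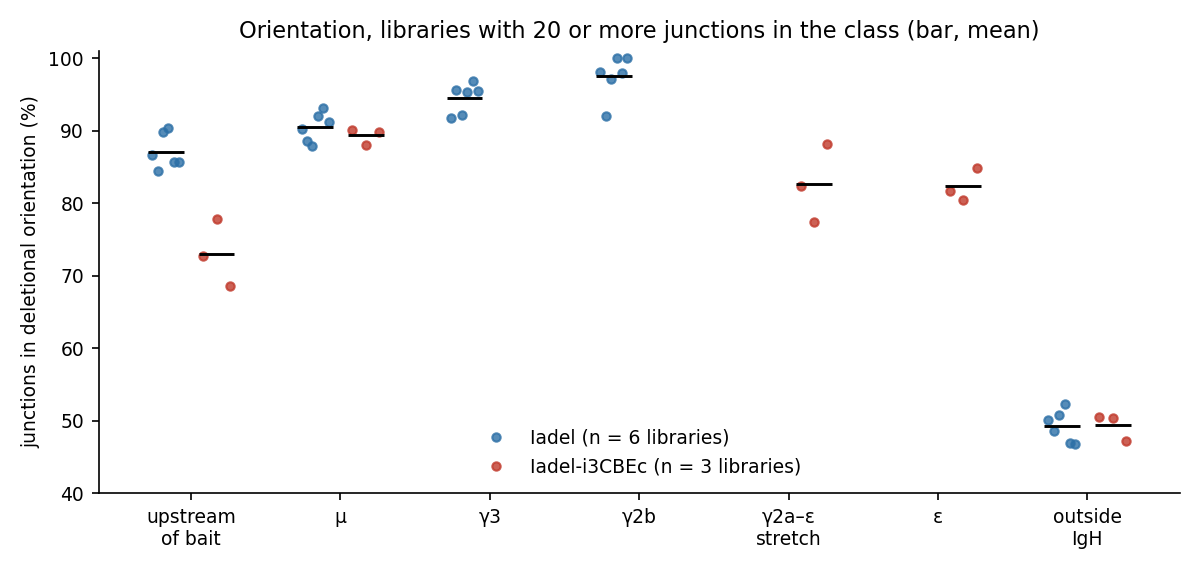
Percent of junctions with prey on the minus strand, by class. Each point is 1 library with 20 or more junctions in the class, and the bar is the mean. Minus is the deletional orientation except in the upstream and outside classes, where it names the strand only. Stretch and ε points of Iadel-i3CBEc lie between 77.3% and 88.1%, below the γ3 and γ2b points of Iadel, while μ and outside points of the 2 groups overlap.

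In μ, 89.3% ± 1.14 (SD, n = 3) and 90.5% ± 2.02 (SD, n = 6) of junctions were deletional (adjusted p = 0.540, exact permutation test). Outside the window, mostly on other chromosomes, only the prey strand can be given. Minus-strand junctions there were 49.3% ± 1.88 (SD, n = 3) and 49.2% ± 2.22 (SD, n = 6; adjusted p = 0.917, exact permutation test). Upstream of the bait, minus-strand junctions were 72.7%, 77.8% and 68.6% in Iadel-i3CBEc and 84.5% to 90.3% in Iadel, at means of 73.0% ± 4.61 (SD, n = 3) and 87.1% ± 2.39 (SD, n = 6; adjusted p = 0.0238, exact permutation test). Within 200 bases of the bait lay 39 of 84 minus-strand junctions in Iadel-i3CBEc and 142 of 239 in Iadel. Beyond 200 bases the pooled shares were 60.8% of 74 and 74.0% of 131.

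The joined sequence was described by its AGCT content, with no test of the differences. AGCT, which reads the same on both strands, was searched in the first 50 aligned prey bases. In Iadel-i3CBEc it was present in 128 of 587 stretch prey (21.8%, 95% Wilson interval 18.7% to 25.3%; 19.2% to 23.3% by library), against 24.0% of 2365 prey outside the window. It was present in 80.0% of 145 ε prey (76.1% to 87.9% by library) and in 79.3% of 1874 μ prey. In Iadel it was present in 90.0% of 987 γ3 prey, 85.8% of 267 γ2b prey, 41.9% of 43 γ1 prey (20% to 53.8% by library), 76.5% of 2375 μ prey and 24.0% of 10515 prey outside. γ2a prey had it in 76.9% of 130 in Iadel and in 56.0% of 25 in Iadel-i3CBEc. Over the first 30 bases the shares in Iadel-i3CBEc were 14.0% in the stretch, 17.6% outside and 59.3% in ε.

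**Figure D5:**
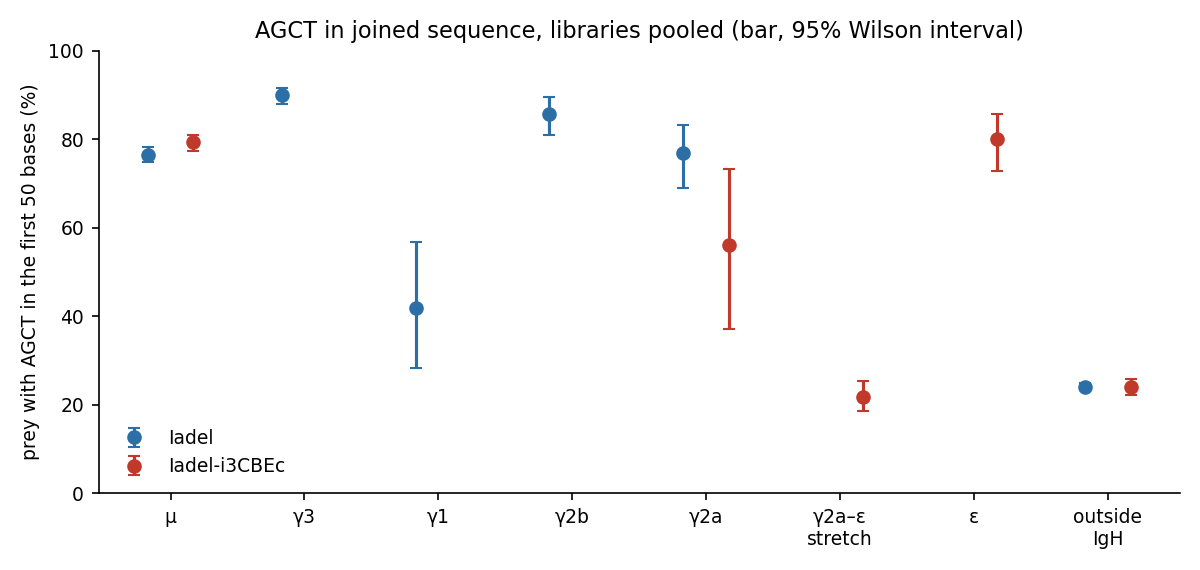
Percent of prey with AGCT in the first 50 aligned bases, libraries pooled, with 95% Wilson intervals that cover counting error only, for classes with 20 or more prey. The stretch, at 21.8%, and the outside class, at 24.0%, lie lowest, and ε of Iadel-i3CBEc is at 80.0%. γ1 of Iadel, at 41.9% of 43 prey, lies between. Switch blocks were placed by AGCT density in prey reads, so their height above the stretch was set in advance.

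Other motifs were searched on both strands in the same bases. GAGCT or its reverse complement AGCTC, which contain AGCT, was in 6.64% of stretch prey, 10.6% of prey outside, 73.1% of ε prey and 73.0% of μ prey of Iadel-i3CBEc, and in 77.3% of γ3 prey of Iadel. GGGGT or ACCCC was in 2.04% of stretch prey, 7.48% of prey outside, 8.97% of ε prey and 62.4% of μ prey of Iadel-i3CBEc, and in 45.4% of γ3 and 3.37% of γ2b prey of Iadel. The latter motif thus did not mark every switch region. The deposited prey are places where joins occurred, so that these shares describe joins and not the underlying DNA. Single prey vary: the printed stretch prey hold 0, 1 and 1 AGCT in 60 bases, the printed ε, γ3 and γ2b prey 1 each in 60, and the γ2a prey 0 in 50.

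No measure of the structure of the joins passed the test. Acceptor junctions with shared bases (microhomology) made up 53.5% ± 1.20 (SD, n = 3) in Iadel-i3CBEc and 56.7% ± 2.06 (SD, n = 6) in Iadel (p = 0.0476, adjusted p = 0.321 over 12 measures, exact permutation test). Direct joins made up 23.8% ± 0.901 (SD, n = 3) and 22.7% ± 2.56 (SD, n = 6), and joins with inserted bases 22.7% ± 0.797 (SD, n = 3) and 20.6% ± 2.64 (SD, n = 6). 0 of 12 measures over acceptor, μ and outside junctions passed, and 1 had an unadjusted p below 0.05 (exact permutation test). The bait was read for a median of 65 bases in acceptor joins in every Iadel-i3CBEc library and for 64 to 67 in Iadel. A p that misses the threshold does not show equal structure.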

How the data were processed

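The files are the authors' deposited junction tables, with 1 line per junction and positions and read coordinates in bases, not normalised. Bowtie2 and mm9 are named in the submitters' processing notes. The settings, filters and any molecular identifiers are not given in the sources used here. The members and lists were chosen with earlier results of these data known.

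Of the 4614 lines of Iadel library 4, 3075 are reads of libraries 5 and 6 and were removed, which left 1539. In insertion libraries 99 bases were subtracted on the μ side of the insertion interval, which was placed by matching 40-base words between groups. There were 25691 matched words, 14659 unshifted, 9987 shifted by 99 bases, 1045 with another shift, and 0 went against the step. Switch blocks were placed from AGCT density in reads (at least 1 per 100 bases in 1-kb bins) and named by the order of constant genes in a GRCm38 gene table. Sμ spans 114661000 to 114663999, Sγ3 114599000 to 114603999, Sγ1 114573000 to 114576999, Sγ2b 114547000 to 114552999, Sγ2a 114528000 to 114533999, Sε 114513000 to 114515999 and Sα 114497000 to 114503999. The window covers 20 kb on the upstream side of the bait and 250 kb on its downstream side.

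Shares are percent of a library's junctions. Group means were compared by exact permutation over libraries. Bins with at least 10 junctions were fitted with limma 3.58.1 (R 4.3.3) over all 21 libraries. On simulated data it called 80% of bins changed 8-fold and 1.67% of unchanged bins. The simulation had 1 spread for all bins, no difference between runs and no group at 0. These rates may therefore not hold for the real bins. Python 3.11.15 and scipy 1.17.1 were used. Intervals (95%) and the limit of 3 junctions at a count of 0 cover counting error only, since PCR reads without identifiers are not independent molecules. Named bins are the 2 with the largest difference among those called in each region, and named positions are the 3 most used. Alternatives were other denominators, pseudocounts, filters, bin sizes, leaving out libraries, the shared run only and the replicate number as a block. For bins, the shared-run alternative left out Iadel libraries 1 to 3 and kept the other genotypes. The leaving out of recurrent joins was chosen after seeing the data.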

Additional observations from a re-analysis of the deposited data

Results flagged for a closer look

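Among the 6 Iadel libraries, 34 measures were searched for a library far from the others, and 2 had one. Chance alone flags about 1 in 20 groups. Library 5 held 0.284% of its junctions in ε, where the others held 0.0291% to 0.114%. Library 3 held 0.357% in α, where the others held 0% to 0.114%. The 3 Iadel-i3CBEc libraries were too few for this search.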

How the results depend on the processing

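With 3 against 3 libraries the smallest p is 0.1, with the replicate block 0.25, and after leaving out 1 library 0.0357 or 0.0179 before adjustment, so that a call lost there may reflect the number of libraries alone. Differences are percentage points, Iadel-i3CBEc minus Iadel. In the shared run alone they were 9.34 for μ, -10.2 for γ3, -2.59 for γ2b, 11.3 for the stretch and 2.60 for ε. In that run they were also 0.390 downstream, -9.84 outside, -14.2 for minus-strand junctions upstream and -13.5 for deletional acceptor junctions. With the replicate block they were, in the same order, 25.5, -5.12, -1.45, 11.4, 2.66, 0.319, -33.7, -13.9 and -11.1. These block differences used only Iadel libraries 1 to 3, which were sequenced in another run than the Iadel-i3CBEc libraries. Run and insertion thus differ together in them, and they are not adjusted for run. Same-numbered libraries of the 2 groups share only a number: their deviations correlated at -0.132, 0.0634 and 0.108. Iadel-i3CBEc libraries 1 and 2 did not correlate best with their own number. Leaving out 1 library at a time gave 15.7 to 19.1 for μ, -8.23 to -7.02 for γ3, -2.21 to -1.87 for γ2b and 11.0 to 11.6 for the stretch. It also gave 2.33 to 2.86 for ε, 0.294 to 0.412 downstream and -24.4 to -19.3 outside. The range was -16.5 to -11.8 for minus-strand junctions upstream, -14.7 to -10.0 for deletional acceptors and 2.89 to 4.65 for the acceptor total. Without Iadel library 4 the μ difference was 19.0. The γ2a difference passed with Iadel library 4 as deposited (-0.437), over the window alone (-2.27) and over deletional joins (-0.537). Over the window alone the upstream difference turned to -2.48 and the downstream one was 0.473 (adjusted p = 0.0529, exact permutation test). Without 10 kb around the bait the acceptor total differed by 9.57 and passed, and μ and upstream have no value there. That denominator keeps the junctions outside the window, and the acceptor total was not computed over the window alone. The α bin at 114500000 turned to -1.45 with prey of at least 50 bases. AGCT in stretch prey was 14.0% over the first 30 bases, with 17.6% outside. Bins called ranged from 21 (2-kb bins) to 43 (500-base bins), with 32 under the replicate block. A fit without Iadel libraries 1 to 3, which kept the other genotypes and their runs, called 25. These 25 kept their call and direction over all libraries, a fit that contains the same libraries. Apart from the effect of fewer libraries on the smallest p, the causes were not tested.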

Other observations

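The most recurrent prey site outside the window, chosen after its values were seen, lay on chromosome 14 around position 32427222. The 100 kb that hold it took 1.17%, 1.52% and 1.52% of junctions in Iadel-i3CBEc. They took 0.484% to 0.616% in Iadel libraries 1 to 3 and 1.06% to 1.43% in libraries 4 to 6. Of these junctions 68 of 71 in Iadel-i3CBEc and 109 of 113 in Iadel were on the plus strand.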
